A study of Homo sapiens with 14 samples.

Results

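The let-7 guide arms are the 9 mature miRNAs hsa-let-7a-5p, hsa-let-7b-5p, hsa-let-7c-5p, hsa-let-7d-5p, hsa-let-7e-5p, hsa-let-7f-5p, hsa-let-7g-5p, hsa-let-7i-5p and hsa-miR-98-5p, taken by name from the 2588 mature miRNAs of the count tables. All 9 were present in both tables, and all 9 passed the filter on low counts in both assays. The RNA came from A549 cells, a human lung adenocarcinoma line, with no genetic change in any group, and it was decapped before either assay. BoRed-seq had 2 Red libraries, for which m7G was reduced with NaBH4 while free m7GTP was present, stripped to an abasic site, bound to a biotin probe and captured on streptavidin, and 2 Ctrl libraries that received acid-quenched NaBH4 and then the same probe and capture. m7G-RIP-seq had 5 IP libraries, captured with an antibody against m7G, and 5 Input libraries of uncaptured RNA. Whether replicates came from separate cultures is not stated in the labels, so p-values measure the spread between these libraries, which may be technical.

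A guide arm is the strand of a miRNA hairpin that is loaded into an Argonaute protein, where it pairs with target mRNAs mainly through its seed, bases 2 to 8. The let-7 guide arms share their seed and are known as tumour suppressors that hold down growth regulators such as RAS, MYC and HMGA2. m7G is a guanine methylated at its nitrogen 7, so an RNA can only carry it at a G, and the members differ in where their Gs stand.

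The mature sequences are shown because the members differ by few bases, and the comparisons below are between these near copies. All are 22 bases long and were taken from RefSeq (GRCh38.p14), 5′ to 3′, with the seed and bases 11 and 12 in capitals.

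let-7a-5p: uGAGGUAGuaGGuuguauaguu
let-7b-5p: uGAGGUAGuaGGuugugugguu
let-7c-5p: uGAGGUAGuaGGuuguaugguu
let-7d-5p: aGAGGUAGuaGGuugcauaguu
let-7e-5p: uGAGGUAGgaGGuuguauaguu
let-7f-5p: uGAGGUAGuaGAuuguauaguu
let-7g-5p: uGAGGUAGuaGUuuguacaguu
let-7i-5p: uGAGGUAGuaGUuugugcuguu
miR-98-5p: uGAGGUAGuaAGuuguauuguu

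All 9 have the seed GAGGUAG. Counted from base 1 at the 5′ end, with the base of let-7a-5p first, let-7b-5p differs from let-7a-5p by A17G and A19G, let-7c-5p by A19G, let-7d-5p by U1A and U16C, let-7e-5p by U9G and let-7f-5p by G12A. The other members differ from it by G12U and U18C in let-7g-5p, by G12U, A17G, U18C and A19U in let-7i-5p, and by G11A and A19U in miR-98-5p. Over the 36 pairs of members, 16 to 21 of the 22 bases were identical, and 4 pairs differed by 1 base. let-7a-5p to let-7e-5p have G at both bases 11 and 12, and let-7f-5p, let-7g-5p, let-7i-5p and miR-98-5p have not. This division of the family was noticed with the results known, so it is used below as a description and is not tested.

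The 9 arms come from 12 hairpins on 8 chromosomes (GRCh38, GENCODE v44). let-7a-5p is made from 3 hairpins. Its sequence lies in an exon of the lncRNA MIRLET7A1HG (chr9:94175962-94175983, + strand), in an intron of the lncRNA MIR100HG (chr11:122146568-122146589, - strand) and in an exon of the lncRNA MIRLET7BHG (chr22:46112752-46112773, + strand). let-7f-5p is made from 2 hairpins, in an exon of MIRLET7A1HG (chr9:94176353-94176374, + strand) and in an intron of HUWE1 (chrX:53557246-53557267, - strand). Each of the other 7 members has 1 hairpin. let-7b-5p lies in an exon of MIRLET7BHG (chr22:46113691-46113712, + strand), let-7c-5p in an exon of the lncRNA MIR99AHG (chr21:16539838-16539859, + strand) and let-7d-5p in an exon of MIRLET7A1HG and, on the opposite strand, an intron of LINC02603 (chr9:94178841-94178862, + strand). let-7e-5p lies in an intron of SPACA6 and, on the opposite strand, an exon of SPACA6-AS1 (chr19:51692793-51692814, + strand), let-7g-5p in an intron of WDR82 (chr3:52268336-52268357, - strand), let-7i-5p in an intron of the lncRNA MIRLET7IHG and an exon of the lncRNA ENSG00000275180 (chr12:62603691-62603712, + strand) and miR-98-5p in an intron of HUWE1 (chrX:53556299-53556320, - strand).

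Each Red library held 242085 or 277498 counts, and the Ctrl libraries held 5874405 and 4678102. Depth was higher in m7G-RIP-seq, with totals of at least 2854811 counts among the IP libraries and up to 14874685 among the Input libraries. A total of 3 counts, the most that a count of 0 allows, made up 0.00124% of the smallest library, and intervals and floors cover counting error only. Of 6 epithelial marker miRNAs, whose sum was 174 to 1002 counts per 1e6 (CPM) across the libraries, miR-200b-3p was the most abundant in Ctrl and Input. Others of the 6 were low: miR-141-3p reached at most 3.60 CPM in any library and miR-429 at most 13.4. miR-205-5p reached at most 1.88 in Ctrl and Input and 25.2 in Red. The summed blood and muscle markers and the neuron marker were low but higher in Red than in Ctrl. The 5 blood markers summed to 1.07 to 1.19 CPM in Ctrl and 8.26 to 25.2 in Red, the 3 muscle markers to 0.34 to 3.42 and 41.3 to 43.2, and the neuron marker miR-124-3p was at 0 and at 12.4 to 46.8. The lowest blood and neuron values in Red lay at or below the share of 3 counts given above. In Ctrl and Red the muscle sum was that of miR-1-3p, with miR-133a-3p and miR-206 at 0. Single blood markers lay mostly below the share of 3 counts in Red, so their directions are uncertain. In Red miR-142-3p was at 3.60 to 4.13 CPM and miR-223-3p at 4.13 to 18.0, above their Ctrl values, and miR-142-5p overlapped. miR-451a was at 0.214 to 0.340 CPM in Ctrl and 0 in Red, which at the depth of Red does not show a lower level. miR-486-5p was at 0. In m7G-RIP-seq the muscle markers summed to at most 22.2 CPM and the blood and neuron markers to at most 2.32. The liver marker miR-122-5p was at 0 in all 14 libraries. miR-126-3p, listed as an endothelial marker, was present at 86.7 to 1103 CPM. The part of these markers in the results was not tested. Within m7G-RIP-seq, replicates 1 to 3 and replicates 4 and 5 stood apart in the make-up of the family, in Input and in IP alike. The labels give no date or batch for them, and values are given for both sets where a direction turned between them.

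The 9 arms together took a larger share of all counts after pulldown in both assays. Their share was 6.06% and 5.49% in the Ctrl libraries and 51.3% and 47.6% in the Red libraries, an 8.55-fold higher mean in Red (5.78% ± 0.40 in Ctrl and 49.4% ± 2.6 in Red, SD, n = 2 each). It was 19.2%, 15.4%, 15.4%, 13.1% and 13.3% in Input replicates 1 to 5 and 32.3%, 33.7%, 29.6%, 22.3% and 22.5% in the IP replicates, a 1.84-fold higher mean in IP (15.3% ± 2.4 in Input and 28.1% ± 5.4 in IP, SD, n = 5 each). No IP library overlapped with an Input library, and no Red library with a Ctrl library. At this depth the 95% Wilson interval of a single library was narrow, for example 51.1% to 51.5% in Red replicate 1, far inside the spread between replicates.

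A share of all counts moves with every other miRNA, and miR-21-5p, an abundant oncogenic miRNA of many tumours, held most of the Ctrl counts. Its share of the counts was 79.7% ± 1.0 in Ctrl and 26.8% ± 0.1 in Red (SD, n = 2 each), and 42.3% ± 3.6 in Input and 5.39% ± 0.77 in IP (SD, n = 5 each). With miR-21-5p left out of the total, the family held 28.8% and 28.1% in Ctrl and 70.1% and 64.9% in Red. In m7G-RIP-seq, without miR-21-5p, it held 32.2%, 28.7%, 28.4%, 21.1% and 22.5% in Input replicates 1 to 5 and 33.8%, 35.4%, 31.2%, 23.8% and 24.0% in IP. IP was above the Input library of the same number in all 5 pairs, by less than with miR-21-5p counted. The groups overlapped over all 5 replicates and over replicates 1 to 3, and did not over replicates 4 and 5.

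**Figure D1:**
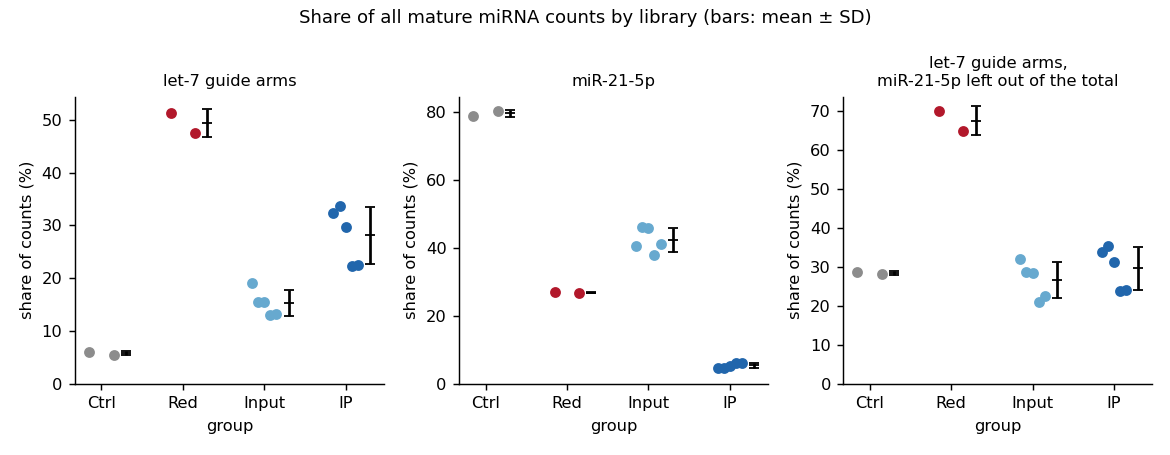
Share of all mature miRNA counts (%, y axis) in each library of the 4 groups (x axis), for the summed let-7 guide arms, for miR-21-5p, and for the let-7 guide arms with miR-21-5p left out of the total. Points are libraries and bars the mean ± SD. In the right panel the Red libraries (64.9% and 70.1%) stay above Ctrl, whereas IP (23.8% to 35.4%) overlaps with Input (21.1% to 32.2%).

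The largest member of the family changed with BoRed-seq pulldown. In Ctrl, let-7i-5p was the largest, followed by let-7f-5p and let-7a-5p, and in Red let-7a-5p was the largest, followed by let-7f-5p and let-7i-5p. let-7a-5p held 13.01% and 9.94% of the family's counts in Ctrl and 56.5% and 54.6% in Red. let-7i-5p went the other way, from 52.2% and 53.3% in Ctrl to 10.4% and 11.2% in Red. let-7f-5p, which differs from let-7a-5p by G12A alone, held 27.7% and 30.9% in Ctrl and 20.2% and 20.7% in Red.

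The less abundant members moved with either of these patterns, and in BoRed-seq Red and Ctrl overlapped for none of the 9. Most miRNAs did not overlap either: on the same scale 19.6% of 453 lay above Ctrl and 72.6% below it. let-7b-5p held 1.21% and 1.05% of the family in Ctrl and 5.59% and 5.84% in Red. let-7e-5p held 1.44% and 1.43% in Ctrl and 5.15% and 5.16% in Red. let-7c-5p rose from 0.143% and 0.129% to 0.784% and 0.806%. These 3 members, like let-7a-5p, were a larger part of the family in every Red library than in either Ctrl library. let-7d-5p held 0.149% and 0.108% in Ctrl and 0.289% and 0.283% in Red, a smaller shift in the same direction. let-7g-5p fell from 3.88% and 2.87% in Ctrl to 1.04% and 1.21% in Red. miR-98-5p held 0.219% and 0.225% in Ctrl and 0.118% and 0.117% in Red.

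**Figure D2:**
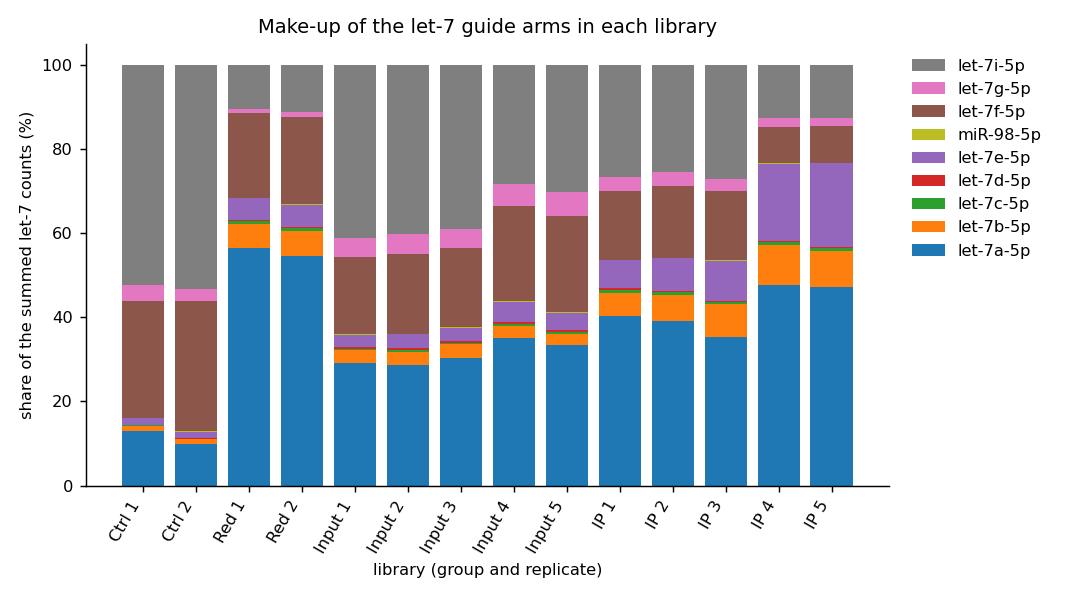
Share of the family's summed counts (%, y axis) held by each of the 9 let-7 guide arms in each of the 14 libraries (x axis), as deposited. let-7a-5p takes 54.6% to 56.5% in Red against 9.94% to 13.01% in Ctrl, and let-7i-5p takes 52.2% to 53.3% in Ctrl.

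In m7G-RIP-seq the make-up also changed. In group means as deposited, the largest gain was in let-7a-5p as a difference in share and in let-7e-5p as a fold (3.42-fold). The first depended on the counting and the replicates. With counts divided by the number of hairpins, let-7e-5p gained most (5.33% in Input, 19.2% in IP), against 15.2% and 21.5% for let-7a-5p. In replicates 4 and 5 as deposited it also did (4.37% and 19.1%), against 34.2% and 47.5% for let-7a-5p. let-7a-5p held 29.1%, 28.6%, 30.4%, 35.0% and 33.4% of the family in Input replicates 1 to 5 and 40.4%, 39.2%, 35.4%, 47.8% and 47.2% in IP. let-7e-5p held 3.03%, 3.32%, 3.15%, 4.73% and 4.01% in Input and 6.76%, 7.87%, 9.64%, 18.4% and 19.9% in IP. Both were higher in every IP library than in any Input library, and for let-7e-5p the IP replicates 4 and 5 stood well above replicates 1 to 3. let-7b-5p held 3.08%, 3.29%, 3.18%, 3.01% and 2.72% in Input and 5.47%, 6.22%, 7.71%, 9.35% and 8.56% in IP. let-7c-5p held 0.392%, 0.401%, 0.399%, 0.470% and 0.450% in Input and 0.604%, 0.548%, 0.529%, 0.829% and 0.801% in IP. These 4 members were above Input without overlap, where 10.4% of 670 miRNAs were on this scale.

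let-7i-5p held 41.2%, 40.3%, 38.9%, 28.4% and 30.2% of the family in Input and 26.5%, 25.5%, 27.1%, 12.7% and 12.7% in IP. let-7g-5p held 4.58%, 4.64%, 4.69%, 5.11% and 5.71% in Input and 3.37%, 3.13%, 2.84%, 2.11% and 1.86% in IP. let-7f-5p held 18.2%, 19.0%, 18.8%, 22.7% and 22.9% in Input and 16.4%, 17.1%, 16.4%, 8.46% and 8.68% in IP. These 3 were below Input without overlap, with the lowest values in IP replicates 4 and 5. For let-7d-5p (0.342% to 0.378% in Input and 0.214% to 0.358% in IP) and miR-98-5p (0.122% to 0.264% in Input and 0.111% to 0.183% in IP) the groups overlapped. Over all 670 miRNAs of m7G-RIP-seq, set against the family's summed counts in the same way, 10.4% lay above Input and 30.7% below it without overlap. In BoRed-seq 19.6% of 453 lay above and 72.6% below, so a member's lower share there is read against a high background.

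The change of each share was tested with the Wald test of DESeq2 on negative binomial fits, run on the whole table with the family's summed counts as the library scale and adjusted by the Benjamini-Hochberg method. A log2 value is then the change of a member's share within the family. The shares are parts of 1 whole, so a rise of some members lowers the shares of others. A lower share is thus not by itself a depletion. Relative to the typical miRNA of BoRed-seq, let-7i-5p was at -0.29 ± 0.28 and let-7g-5p at 0.40 ± 0.30, neither called. There miR-98-5p was higher, at 1.09 ± 0.34 (SE, DESeq2 adjusted p = 0.0030). In BoRed-seq, 5 members had a higher share in Red and 3 a lower one at an adjusted p under 0.05, where 14.6% of all 453 miRNAs tested were called higher and 55.6% lower. let-7a-5p rose by a log2 of 2.28 ± 0.37 (SE, DESeq2 adjusted p = 3.36e-09), let-7b-5p by 2.34 ± 0.36 (DESeq2 adjusted p = 3.50e-10) and let-7c-5p by 2.54 ± 0.37 (DESeq2 adjusted p = 4.81e-11). let-7e-5p rose by 1.85 ± 0.35 (DESeq2 adjusted p = 5.39e-07) and let-7d-5p by 1.16 ± 0.41 (DESeq2 adjusted p = 0.0085). The largest drop was that of let-7i-5p, whose log2 was -2.29 ± 0.35 (DESeq2 adjusted p = 3.62e-10), followed by let-7g-5p with -1.59 ± 0.38 (DESeq2 adjusted p = 9.03e-05) and miR-98-5p with -0.92 ± 0.40 (DESeq2 adjusted p = 0.032). let-7f-5p, with -0.52 ± 0.35 (DESeq2 adjusted p = 0.174), was not called, though edgeR called it lower (edgeR adjusted p = 0.010). The call of let-7d-5p was lost without Ctrl replicate 2 (adjusted p = 0.155) or Red replicate 1 (0.060) in DESeq2, and that of miR-98-5p without any single library (0.119 to 0.222).

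In m7G-RIP-seq, 4 members had a higher share in IP and 2 a lower one, where 17.6% of all 670 miRNAs tested were called higher and 36.9% lower. let-7e-5p rose by a log2 of 1.78 ± 0.35 (SE, DESeq2 adjusted p = 2.10e-06) and let-7b-5p by 1.29 ± 0.20 (DESeq2 adjusted p = 2.04e-09). let-7c-5p rose by 0.65 ± 0.20 (DESeq2 adjusted p = 0.0033) and let-7a-5p by 0.42 ± 0.16 (DESeq2 adjusted p = 0.019). let-7g-5p fell, with -0.89 ± 0.22 (DESeq2 adjusted p = 0.00022), as did let-7i-5p, with -0.77 ± 0.30 (DESeq2 adjusted p = 0.020). let-7f-5p (-0.60 ± 0.27, DESeq2 adjusted p = 0.051), let-7d-5p (-0.41 ± 0.19, DESeq2 adjusted p = 0.055) and miR-98-5p (-0.35 ± 0.30, DESeq2 adjusted p = 0.33) were not called. With the replicate number as a block, 4 members were called lower, since let-7f-5p (-0.66, DESeq2 adjusted p = 0.023) and let-7d-5p (-0.43, DESeq2 adjusted p = 0.031) passed as well. The shares of all miRNAs above belong to the fit without the block, and those of the blocked fit are not given here. Without Input replicate 1, 2 or 3 or IP replicate 5, let-7i-5p missed the threshold (DESeq2 adjusted p from 0.051 to 0.054), and without IP replicate 5 so did let-7a-5p (0.057).

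The sets of replicates differed in size of change more than in its direction. In replicates 1 to 3 alone, the log2 change of the family share was 1.35 ± 0.17 for let-7e-5p, -0.60 ± 0.13 for let-7i-5p and -0.17 ± 0.12 for let-7f-5p (SE). In replicates 4 and 5 alone it was 2.13 ± 0.14, -1.21 ± 0.13 and -1.41 ± 0.13 in the same order. All 9 members had the same sign in both sets, and in replicates 4 and 5 all 5 members that were lower were called. The share of all miRNAs called lower in that fit is not given here, so this count has no background to be read against.

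**Figure D3:**
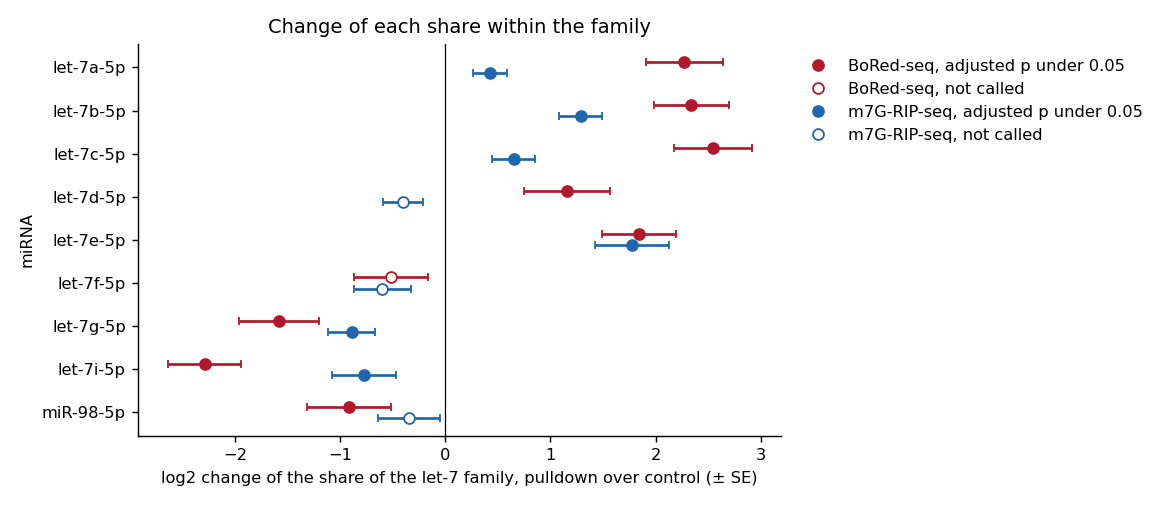
Log2 change of each member's share of the family's summed counts (x axis, ± SE of the DESeq2 fit) for the 9 members (y axis), Red over Ctrl in red and IP over Input in blue. Filled points have an adjusted p under 0.05. let-7d-5p lies at 1.16 in BoRed-seq, against at -0.41 in m7G-RIP-seq, and let-7e-5p at 1.85 and 1.78.

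The difference between the assays was tested itself, as the interaction of assay and pulldown over all 14 libraries. Of 542 miRNAs tested, 8.67% had a higher change in BoRed-seq and 20.3% a lower one. Among the members, 4 had a higher change in BoRed-seq and 1 a lower one. The difference (BoRed-seq minus m7G-RIP-seq, log2) was 1.85 ± 0.28 for let-7a-5p (SE, DESeq2 adjusted p = 1.74e-09), 1.90 ± 0.33 for let-7c-5p (DESeq2 adjusted p = 3.58e-07), 1.56 ± 0.33 for let-7d-5p (DESeq2 adjusted p = 3.18e-05) and 1.05 ± 0.33 for let-7b-5p (DESeq2 adjusted p = 0.0091). For let-7i-5p it was -1.52 ± 0.51 (DESeq2 adjusted p = 0.014), a call that was lost with counts per hairpin (-1.04, DESeq2 adjusted p = 0.114). With replicates 1 to 3 of m7G-RIP-seq alone, 3 members had a lower change in BoRed-seq, since let-7g-5p and miR-98-5p passed as well. The shares of all miRNAs above belong to the fit of all 14 libraries, and those of this subset are not given here. let-7e-5p, the member with the highest change in m7G-RIP-seq, did not pass, with a difference of 0.07 ± 0.60 (DESeq2 adjusted p = 0.95), and its wide error leaves room for a difference in either direction. let-7f-5p (0.08 ± 0.46), let-7g-5p (-0.69 ± 0.39) and miR-98-5p (-0.57 ± 0.51) did not pass either. The groups that served as controls differed too: let-7a-5p held 11.5% ± 2.2 of the family in Ctrl (SD, n = 2) and 31.3% ± 2.8 in Input (SD, n = 5). Ctrl RNA had gone through capture and Input had not, and this cannot be told apart from the assay.

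Set by their bases 11 and 12, let-7a-5p to let-7e-5p together held 15.9% and 12.7% of the family in Ctrl and 68.3% and 66.7% in Red. They held 35.9%, 35.9%, 37.5%, 43.6% and 40.9% in Input and 53.6%, 54.1%, 53.5%, 76.6% and 76.6% in IP. The exception within these members was let-7d-5p, whose share of the family was not higher in IP. They also hold more Gs in all, 8 to 10 against 7 or 8 in the other members, so the number and the position of the Gs cannot be told apart here. let-7i-5p has as many Gs, 8, as let-7a-5p and let-7d-5p.

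Of 2370 human mature miRNAs in the RefSeq table, 11.6% have G at both bases 11 and 12. Outside the family, 41 such miRNAs were tested in BoRed-seq, with a median log2 enrichment relative to the typical miRNA of 1.57, and 22 were enriched and 5 depleted. The 305 others had a median of -0.31, with 85 enriched and 85 depleted. In m7G-RIP-seq the 62 with both Gs had a median of 0.82, with 28 enriched and 11 depleted, against 0.03 for the 531 others, with 139 enriched and 165 depleted. The miRNAs with both Gs held more Gs in all (in BoRed-seq a median of 7 against 5, in m7G-RIP-seq of 8 against 6), and the part of this in the difference was not tested.

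Pairs that differ by a single base show the same data without the rest of the family. The ratio of let-7a-5p to let-7f-5p counts was 0.395 ± 0.104 in Ctrl and 2.72 ± 0.12 in Red (SD, n = 2 each), and 1.54 ± 0.06 in Input and 3.60 ± 1.78 in IP (SD, n = 5 each), where it ran from 2.16 to 5.64. Red and Ctrl did not overlap, nor did IP and Input. The ratio of let-7a-5p to let-7e-5p, which differ by U9G, was 7.997 ± 1.499 in Ctrl and 10.8 ± 0.3 in Red, and 8.71 ± 0.94 in Input and 3.92 ± 1.54 in IP, so that let-7e-5p gained on let-7a-5p with the antibody. The ratio of let-7a-5p to let-7c-5p, which differ by A19G, stayed in a narrower range, from 64.4 ± 5.9 in IP to 83.9 ± 9.8 in Ctrl. The ratio of let-7b-5p to let-7c-5p was 8.28 ± 0.26 in Ctrl, 7.19 ± 0.08 in Red, 7.30 ± 0.99 in Input and 11.4 ± 2.0 in IP. Between let-7a-5p and let-7i-5p, which differ by 4 bases, the ratio was 0.218 ± 0.044 in Ctrl and 5.17 ± 0.41 in Red, and 0.907 ± 0.246 in Input and 2.37 ± 1.26 in IP.

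**Figure D4:**
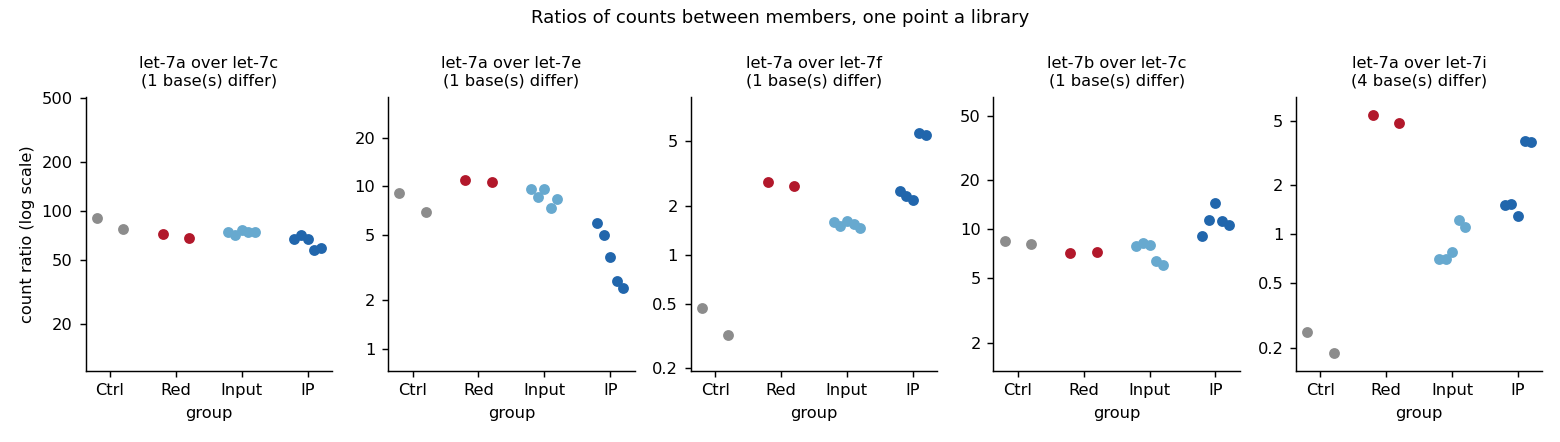
Ratio of the counts of pairs of members (y axis, log scale, the same span in each panel) in each library of the 4 groups (x axis). The let-7a-5p to let-7f-5p ratio, for members 1 base apart, goes from a mean of 0.395 in Ctrl to 2.72 in Red, and the let-7a-5p to let-7c-5p ratio, also 1 base apart, from 83.9 to 69.9.

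Reads that fit several hairpins appear to have been counted once per hairpin. Of counts from 1 to 30 of miRNAs with 2 hairpins, 85.3% were even in BoRed-seq, as were 88.6% in m7G-RIP-seq, against 38.5% and 45.9% for miRNAs with 1 hairpin. Of those with 3 hairpins, 80.0% and 91.7% were whole multiples of 3, against 22.01% and 29.3%. let-7a-5p itself was a whole multiple of 3 in 2 of 4 BoRed-seq and 5 of 10 m7G-RIP-seq libraries, and let-7f-5p was even in 1 of 4 and 6 of 10, so not every read was counted that way. Shares between members therefore depend on the counting, and whether the part of the reads counted several times was the same in all libraries was not tested.

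Divided by their number of hairpins, let-7a-5p held 4.93% ± 0.95 of the family in Ctrl and 35.1% ± 1.3 in Red (SD, n = 2 each), and 15.2% ± 2.0 in Input and 21.5% ± 3.2 in IP (SD, n = 5 each). let-7i-5p held 67.9% ± 0.7 in Ctrl and 20.4% ± 0.9 in Red, and 51.6% ± 6.6 in Input and 31.9% ± 11.05 in IP. let-7a-5p remained the largest member in Red, let-7i-5p was the largest in Ctrl, in all 5 Input libraries and in IP replicates 1 to 3, and let-7e-5p in IP replicates 4 and 5. As deposited, let-7a-5p was the largest in all 5 IP libraries and in Input replicates 4 and 5. The order of the members in IP and Input thus depended on the counting. The share of let-7f-5p was 18.9% ± 1.4 in Ctrl and 19.4% ± 0.1 in Red per hairpin, so the direction of its change in BoRed-seq turned.

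**Figure D5:**
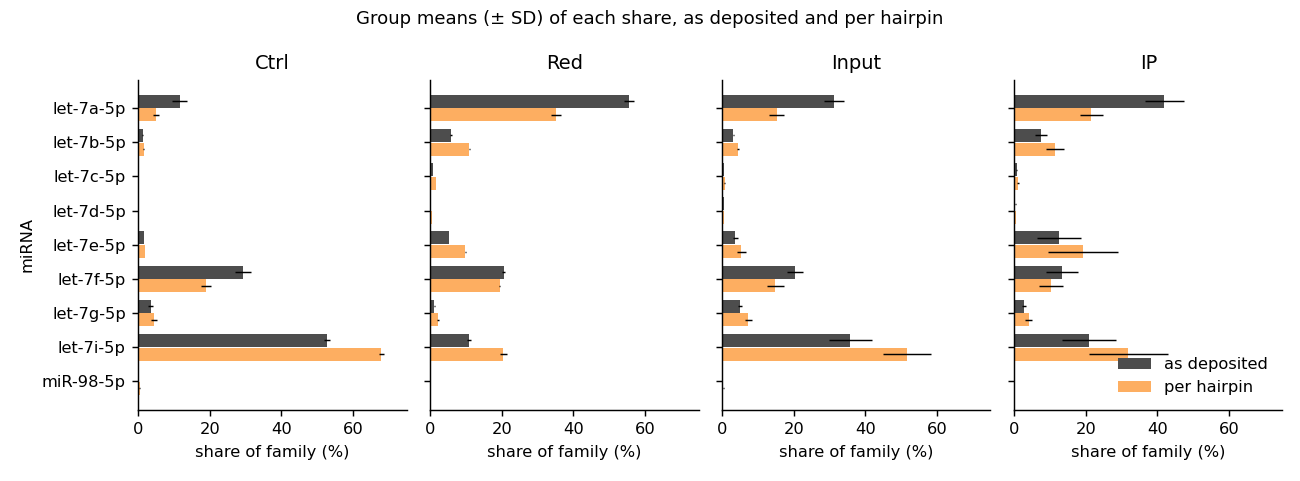
Mean share of the family's summed counts (%, x axis) of each member (y axis) in the 4 groups, with bars for the SD over libraries, from the counts as deposited (dark) and from counts divided by the number of hairpins (orange). let-7a-5p in Red goes from 55.6% to 35.1% and let-7i-5p in Red from 10.8% to 20.4%.

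As a share of all counts, every member was higher in both Red libraries than in either Ctrl library, where 50.1% of 453 miRNAs were. The folds between group means ran from 49.8 for let-7c-5p, 43.2 for let-7b-5p and 41.2 for let-7a-5p to 2.82 for let-7g-5p and 1.74 for let-7i-5p. In IP, let-7e-5p (5.96-fold), let-7b-5p (4.34-fold), let-7c-5p (2.82-fold), let-7a-5p (2.45-fold) and miR-98-5p (1.45-fold) lay above Input without overlap, where 21.9% of 670 did, and the other 4 members overlapped. None lay below Input, where 19.1% did. On totals without miR-21-5p the direction turned for several members. In BoRed-seq it turned for let-7g-5p (log2 -0.35, not called) and for let-7i-5p, which was called lower. In m7G-RIP-seq it turned for let-7d-5p, let-7f-5p, let-7i-5p and miR-98-5p (-0.17), none of them called. There it also turned for let-7g-5p, which was called lower.

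For let-7f-5p, let-7g-5p and let-7i-5p the direction turned between the sets of replicates. let-7i-5p held 7.89%, 6.21%, 5.997%, 3.71% and 4.01% of all counts in Input replicates 1 to 5 and 8.56%, 8.60%, 8.05%, 2.82% and 2.86% in IP. let-7f-5p held 3.49%, 2.93%, 2.90%, 2.96% and 3.05% in Input and 5.28%, 5.77%, 4.85%, 1.88% and 1.96% in IP. let-7g-5p held 0.877%, 0.715%, 0.723%, 0.667% and 0.758% in Input and 1.09%, 1.06%, 0.842%, 0.470% and 0.420% in IP. Each of the 3 was higher in IP than in the Input library of the same number in replicates 1 to 3 and lower in replicates 4 and 5. let-7d-5p was higher in IP in all 5 pairs. The smallest rise was in replicate 5 (0.0462% in Input, 0.0483% in IP) and the largest in replicate 1 (0.0656% and 0.115%).

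Set against the typical miRNA of each assay instead, 7 members were called higher in Red (background 32.2%) and 4 in IP (background 27.3%), and DESeq2 called 0 lower in either assay, at an adjusted or an unadjusted p under 0.05, and edgeR also called 0 (backgrounds 27.2% and 29.9%). On library totals it called all 9 higher in Red (background 44.8%) and 5 higher in IP (background 34.6%). The 0 lower calls did not hold under every choice. In m7G-RIP-seq replicates 4 and 5 alone, let-7f-5p (-0.93), let-7g-5p (-0.97) and let-7i-5p (-0.73) were called lower, and let-7g-5p was (-0.67) on totals without miR-21-5p. In BoRed-seq let-7i-5p was called lower on totals without miR-21-5p (-1.05), with no count filter (-0.78), and without Ctrl replicate 1 (-1.06) or 2 (-0.89). let-7g-5p (0.40 ± 0.30) and let-7i-5p (-0.29 ± 0.28) were not called in BoRed-seq, and let-7d-5p, let-7f-5p, let-7g-5p, let-7i-5p and miR-98-5p were not in m7G-RIP-seq. For let-7i-5p the direction depended on the scale, with a log2 of 0.80 ± 0.31 in BoRed-seq on library totals. Library totals moved the median of all miRNAs to 0.76 in BoRed-seq, against 0.38 in m7G-RIP-seq, from -0.32 and 0.02.

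Beyond the 9, RefSeq holds the let-7 seed in miR-4458 and miR-4500, while miR-202-3p, often grouped with let-7, has another seed there. miR-4500 was enriched in BoRed-seq relative to the typical miRNA (log2 2.10 ± 0.56, DESeq2 adjusted p = 0.00046, from 55 and 61 counts in Ctrl and 24 to 30 in Red) and not called in m7G-RIP-seq (0.11 ± 0.55, DESeq2 adjusted p = 0.88). miR-4458 was enriched in m7G-RIP-seq (1.64 ± 0.52, DESeq2 adjusted p = 0.0038) and had at most 2 counts in any BoRed-seq library. miR-202-3p had 0 counts in BoRed-seq and at most 5 in m7G-RIP-seq.

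let-7a-2, let-7c and let-7e are made from transcripts that also carry miR-99, miR-100 or miR-125 hairpins. These partners did not share a direction. Relative to the typical miRNA, miR-99a-5p, the partner of let-7c, was depleted in both assays (-1.76 ± 0.29 with BoRed-seq, -1.61 ± 0.25 with m7G-RIP-seq). miR-99b-5p and miR-125a-5p, the partners of let-7e, were enriched in both, by 0.68 ± 0.30 and 1.41 ± 0.27 in BoRed-seq, against 1.43 ± 0.21 and 0.64 ± 0.28 in m7G-RIP-seq. miR-100-5p, from the transcript of let-7a-2, was depleted in BoRed-seq (-1.49 ± 0.29) and enriched in m7G-RIP-seq (0.74 ± 0.26). miR-125b-5p was called in neither (-0.56 ± 0.27 and -0.72 ± 0.39). On library totals, the depletion of miR-99a-5p (-0.63 ± 0.36) and miR-100-5p (-0.40 ± 0.31) in BoRed-seq was not called.

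Outside the family, the miRNAs whose level over the 14 libraries was most like the family's sum were let-7b-3p (r = 0.992), miR-92b-5p (0.988), miR-3182 (0.980), miR-25-5p (0.974) and miR-6087 (0.973). The measure is Pearson's r of log2 CPM, centred within each assay, over 140 miRNAs compared, and it is a description, since all points share their libraries and the pulldown. let-7b-3p is the other arm of the let-7b hairpin. miR-3182 had 6 and 15 counts in Ctrl and 475 and 680 in Red, so in BoRed-seq it passed the count limit through Red. Of the members, let-7a-5p had the highest r with the family's sum (0.986) and let-7i-5p the lowest (0.534). The members are part of that sum, so their r is partly fixed in advance.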

How the data were processed

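Small RNA libraries (NEBNext, single-end) of A549 cells were assigned to groups and replicates from their sample titles. The deposited values are raw counts of reads per mature miRNA, in 1 table per assay, neither normalized nor pooled by the authors. According to the study's methods, Trimmomatic removed adaptors, STAR aligned the reads to GRCh38, keeping those with several loci, and featureCounts counted them over miRBase mature miRNAs. The submitters' processing notes name Bowtie2 as the aligner. Near-identical members, and mature miRNAs made from several hairpins, can share reads, so shares between members carry an uncertainty that replicates do not show. The tables held 0 columns that matched no sample.

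Shares were computed per library from the counts as deposited, with 95% Wilson intervals. Changes were tested with the DESeq2 1.42.0 Wald test in R 4.3.3, which the study's methods name, over miRNAs that reached 10 counts in at least 2 (BoRed-seq) or 5 (m7G-RIP-seq and the joint fit) libraries, with Benjamini-Hochberg adjustment over all miRNAs tested and a threshold of 0.05. Library scales were medians of ratios (relative to the typical miRNA) or the summed counts of the 9 members (share within the family). Fits were also run on simulated counts in which only miRNAs outside the family changed, as many up as down. The family was unchanged there, unlike in the data, so that run does not bear on fits with a shifted family scale. DESeq2 gave no adjusted p to 53 of 453 BoRed-seq miRNAs on the median-of-ratios scale, and these were left out of counts. No replicate pair agreed within sampling noise, with a chi-square per degree of freedom of at least 12.6.

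Same-numbered Input and IP libraries deviated together (r of deviations from group means 0.179, 0.152, 0.146, 0.310 and 0.387). Replicate numbers were therefore taken as pairs there for descriptions and for an alternative fit with the number as a block. The main tests left the pairs out. Libraries of different number within the sets 1 to 3 and 4 and 5 deviated together to a like extent (Input replicate 4 with IP replicate 5, r = 0.373), so the numbers may mark the set rather than the pair. The pairing comes from the titles. Alternatives were library totals with and without miR-21-5p, TMM, edgeR 4.0.16 quasi-likelihood, other count filters, a replicate block, thinning of Ctrl, counts per hairpin, each replicate left out, and the replicate sets 1 to 3 and 4 and 5. The miRNAs named are the 9 members, other miRNAs grouped with the let-7 seed, guide arms from the transcripts of let-7a-2, let-7c and let-7e, miR-21-5p, and the 5 miRNAs outside the family with a mean of at least 100 normalized counts in both assays that were most correlated with the family's sum in log2(CPM + 1). Marker miRNAs of other cell types were checked. The members and lists were chosen with earlier results of these data known.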

Additional observations from a re-analysis of the deposited data

Results flagged for a closer look

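In Input, replicate 1 stood far from the other 4 libraries in the share of all counts of 3 members. let-7a-5p held 5.57% there and 4.40% to 4.68% in the others, let-7c-5p held 0.0750% and 0.0599% to 0.0618%, and let-7f-5p held 3.49% and 2.90% to 3.05%. The gap to the nearest library as a fraction of the group's range was 0.757, 0.874 and 0.755, in the same order, above the critical value of Dixon's test. In all, 38 groups of values were tested and 3 stood out, and chance alone flags about 1 in 20. This library also had the lowest total of the Input group.

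The change of the family share differed between the assays, by the interaction test, for 5 members. The difference, BoRed-seq minus m7G-RIP-seq on the log2 scale, was 1.85 for let-7a-5p, 1.05 for let-7b-5p, 1.90 for let-7c-5p, 1.56 for let-7d-5p and -1.52 for let-7i-5p. That of let-7i-5p was no longer called with counts per hairpin. For let-7d-5p the change itself was 1.16 in BoRed-seq, against -0.41 in m7G-RIP-seq. The kind of control (captured in BoRed-seq, uncaptured in m7G-RIP-seq) and the number of replicates go with the assay and cannot be told apart from it.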

How the results depend on the processing

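Depth limits the Red libraries most, and 2 libraries a group limit BoRed-seq. The cause of the changes below was not tested. Counts of called members below stand without the share of all miRNAs called in the same setting. They show which calls changed and are not set against a background. The log2 change of the family's share of all counts was 3.10 in BoRed-seq and fell to 1.25 without miR-21-5p and to 2.94 per hairpin, and in m7G-RIP-seq it was 0.87 and fell to 0.16 without miR-21-5p. Relative to the typical miRNA, 0 members were called depleted in either assay. In BoRed-seq 1 was (let-7i-5p) on totals without miR-21-5p and with no count filter, and 0 to 1 when a replicate was left out (1 without Ctrl replicate 1 or 2). In m7G-RIP-seq 1 was (let-7g-5p) on totals without miR-21-5p and 3 were in replicates 4 and 5 alone. In m7G-RIP-seq, 2 members were called lower within the family, against 4 with 10 counts in every library, 4 with the replicate block, 5 in replicates 4 and 5 alone and 1 to 4 when a replicate was left out (1 without Input replicate 1, 2 or 3 or IP replicate 5, and 4 without IP replicate 1). The 1 member whose change was lower in BoRed-seq than in m7G-RIP-seq became 0 per hairpin and 3 in replicates 1 to 3 alone.

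Directions turned mostly for members that were not called. In BoRed-seq, relative to the typical miRNA, let-7i-5p turned to 0.80 on library totals, 0.14 with Ctrl thinned and 0.043 without Red replicate 2 (-1.06 to 0.043 over the libraries left out), and let-7g-5p to -0.35 on totals without miR-21-5p, -0.074 with no count filter and -0.41 to -0.11 without a Ctrl replicate (-0.41 to 0.69 over the libraries left out). Within the family, let-7f-5p turned to 0.040 per hairpin. In m7G-RIP-seq, library totals gave 0.051 for let-7g-5p and 0.15 for let-7i-5p, and totals without miR-21-5p gave -0.21 for let-7d-5p, -0.35 for let-7f-5p and -0.17 for miR-98-5p. There let-7f-5p was also at -0.021 with no count filter, -0.13 with the replicate block, -0.93 in replicates 4 and 5 alone and -0.16 to 0.23 without 1 library, below 0 without Input replicate 4 or 5 or IP replicate 1, 2 or 3, and let-7d-5p at -0.19 in replicates 4 and 5 alone and -3.7e-05 (without IP replicate 1) to 0.31 without 1 library. The difference between the assays turned to -0.35 for let-7f-5p in replicates 1 to 3 alone and to -0.28 for let-7e-5p in replicates 4 and 5 alone.

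In BoRed-seq the numbers pair only 2 libraries a group (r = 0.110), and there the replicate block called let-7f-5p lower as well (adjusted p = 0.047 in DESeq2). Beside this and the members named in the report, the block changed no other call.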
